A study of Mus musculus with 67 samples.

Results

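The genes described here encode the enzymes that make and degrade cyclic AMP and the kinase that answers to it: the adenylyl cyclases, the cyclic nucleotide phosphodiesterases, the subunits of protein kinase A and its anchoring proteins. They were taken by gene symbol (Pde, Adcy and Akap followed by a number, and Prkar or Prkac), with Pde5a left out, a rule that uses no measured value, though the family was chosen with earlier results of these data known. The rule found 78 probe sets of 54 genes among the 38385 probe sets on the array, of which 24478 carry a single gene symbol and together name 19147 genes. By family there were 14 probe sets of 10 cyclase genes, 34 of 22 phosphodiesterase genes, 7 of 6 kinase subunit genes and 23 of 16 anchor genes. Pde4dip (myomegalin), a phosphodiesterase 4 interacting protein that the symbol rule also takes in, was counted with the anchors.

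RNA was measured in 3 inbred mouse strains selected for blood pressure, all males aged 12 weeks. BPH/2J is the hypertensive strain (systolic pressure 142 ± 5 mmHg), BPN/3J the normotensive control strain (94 ± 6 mmHg) and BPL/1J the hypotensive strain (69 ± 1.7 mmHg), the kind of error being unstated in the labels. Each array held RNA of 1 tissue: the aorta (9 BPH, 5 BPN and 9 BPL arrays), the heart (5, 5 and 5), the kidney (5, 5 and 4) and the liver (5, 5 and 5), 67 arrays in 12 groups. All values are log2 of the deposited normalized probe set intensity, so that a difference of 1 is a doubling, and each strain difference was tested with limma within its tissue. A probe set is said to be higher or lower below only where its p-value, adjusted over all 38385 probe sets, was under 0.05.

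Adenylyl cyclases in the membrane turn ATP into cyclic AMP when a hormone receptor acts through the stimulatory G protein, and phosphodiesterases end the signal by hydrolysing cyclic AMP, cyclic GMP or both. Cyclic AMP frees the catalytic subunits of protein kinase A from its regulatory subunits, and A-kinase anchoring proteins (AKAPs) hold the kinase, often together with a phosphodiesterase, next to its substrates. In arterial smooth muscle this pathway relaxes the vessel, and in heart muscle it raises the rate and force of the beat.

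Cyclic AMP also acts on genes through the cyclic AMP response element (CRE), whose palindrome is TGACGTCA and whose shorter core is TGACG, or CGTCA on the other strand. The promoter windows of 4 members are shown so that these letters can be seen: the member with the full palindrome and 3 members whose levels differed between strains. Each runs 5′ to 3′ on the gene's strand across a transcription start in RefSeq (GRCm38.p6), with CRE letters in capitals: Prkar1a at chr11:109650612-109650911 (plus strand), Prkar1b at chr5:139149952-139150251 (minus), Pde4b at chr4:102421305-102421604 (plus) and Akap11 at chr14:78536811-78537110 (minus).
Prkar1a: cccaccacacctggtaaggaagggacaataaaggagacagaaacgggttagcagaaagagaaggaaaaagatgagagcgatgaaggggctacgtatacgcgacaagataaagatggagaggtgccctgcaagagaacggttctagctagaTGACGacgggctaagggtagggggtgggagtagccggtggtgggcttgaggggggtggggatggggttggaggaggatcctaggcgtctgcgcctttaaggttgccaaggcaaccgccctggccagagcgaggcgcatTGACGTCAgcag
Prkar1b: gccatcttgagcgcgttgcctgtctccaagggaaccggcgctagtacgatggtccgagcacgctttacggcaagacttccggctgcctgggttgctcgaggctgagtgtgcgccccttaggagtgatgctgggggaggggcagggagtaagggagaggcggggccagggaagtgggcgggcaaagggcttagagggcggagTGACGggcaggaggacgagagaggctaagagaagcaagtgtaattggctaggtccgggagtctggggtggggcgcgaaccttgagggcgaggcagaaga
Pde4b: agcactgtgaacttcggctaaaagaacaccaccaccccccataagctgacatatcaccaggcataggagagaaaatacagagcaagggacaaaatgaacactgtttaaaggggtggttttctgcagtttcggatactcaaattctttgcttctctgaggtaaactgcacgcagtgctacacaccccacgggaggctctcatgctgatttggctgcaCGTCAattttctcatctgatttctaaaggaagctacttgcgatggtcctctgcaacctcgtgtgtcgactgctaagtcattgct
Akap11: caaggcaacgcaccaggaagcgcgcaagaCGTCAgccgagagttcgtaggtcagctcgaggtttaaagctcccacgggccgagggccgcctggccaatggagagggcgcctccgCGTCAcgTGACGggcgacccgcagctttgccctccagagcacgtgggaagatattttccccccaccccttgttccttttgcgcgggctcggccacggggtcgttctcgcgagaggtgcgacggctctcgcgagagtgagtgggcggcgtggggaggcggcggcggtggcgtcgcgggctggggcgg
Of the 43 member genes with a window, the full palindrome stood in 1 (2.33%), Prkar1a, against 2.03% of all 27025 genes with windows. The core stood in 14 of 43 (32.6%), against 23% of all genes, and every full palindrome holds the core. The 43 member genes had 86 windows and the 27025 genes had 32851. Members thus had more windows per gene in which a match could fall, and the shares per gene are not like for like. Of all windows 20.8% held the core. Many genes have several start sites, and which one gives the RNA on these arrays is not known, so a match describes the letters alone.

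The arrays of a group correlated with each other at r = 0.986 to 0.997. A dim probe set has no sure level: the lower quartile of an array lay at 2.90 to 3.03 in the aorta, 3.20 to 3.32 in the heart, 3.49 to 3.64 in the kidney and 2.67 to 2.76 in the liver, and no fold is given where a strain mean fell below it. The tissue labels were borne out by smooth muscle markers (11.92 to 12.35 per aortic array, 7.28 to 7.89 per heart array) and striated muscle markers (11.40 to 11.55 in the heart, 5.72 to 7.52 in the aorta). These are whole tissues, so fewer cells of a type and less RNA per cell cannot be told apart. Probe sequences were not at hand, so whether sequence differences between the strains alter a reading was not tested. Which arrays came from which mice is not given, and 2 strains have 9 aortic arrays where the design text speaks of 5 mice a strain. The p-values therefore measure how far arrays scatter, and some of that scatter may be technical. Levels are compared only within a probe set and a tissue.

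In the aorta 7 of the 78 member probe sets (8.97%) were higher in BPH than in BPN and 7 (8.97%) lower, where 4.45% of all probe sets were higher and 4.7% lower. BPL against BPN gave 9 higher (11.5%) and 6 lower (7.69%), with 5.14% and 5.2% over all probe sets. BPH against BPL gave 10 higher (12.8%) and 5 lower (6.41%), with 5.67% and 5.36% over all. The comparisons with BPN share its 5 arrays, and the BPH count fell to 9, 8 and 9 without BPN arrays 12, 13 and 14 in turn.

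**Figure D1:**
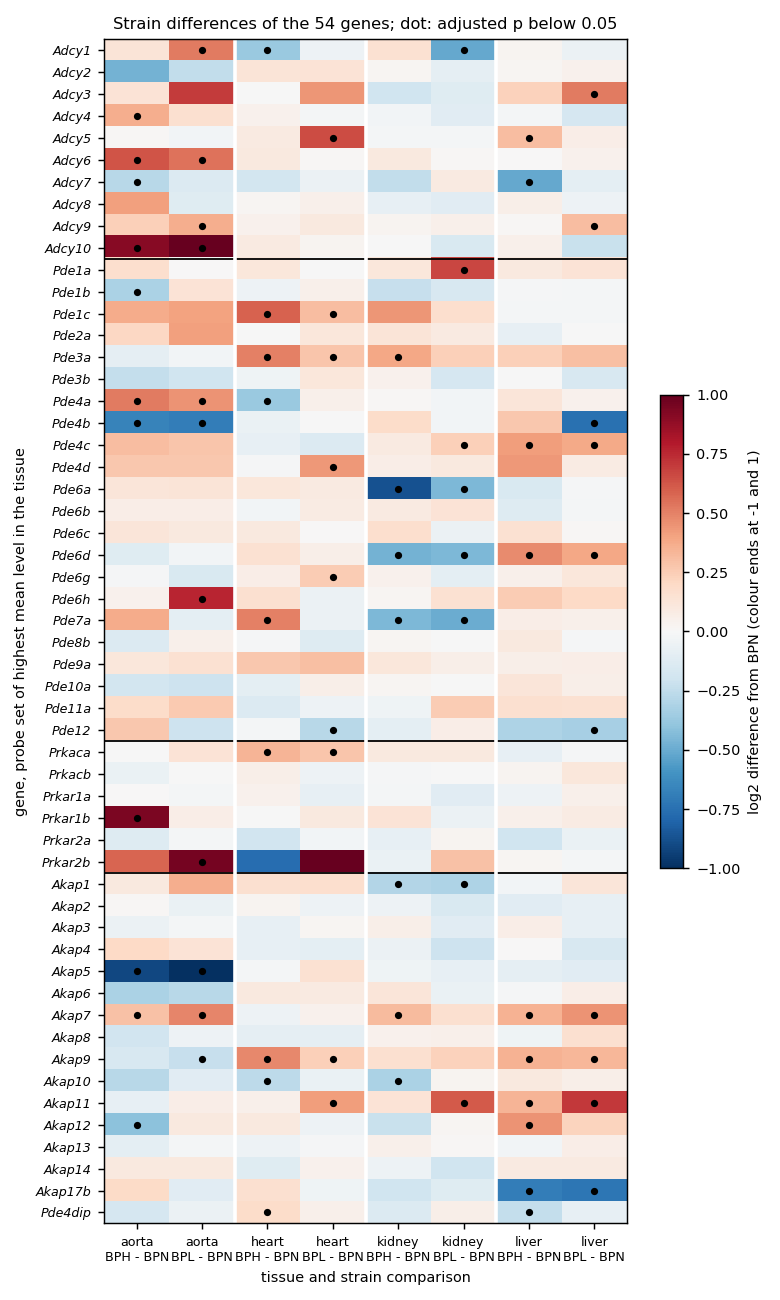
Log2 strain differences of the 54 genes (rows, by family; the probe set with the highest mean per gene) in the 4 tissues for BPH minus BPN and BPL minus BPN (columns). Colour runs from -1 (lower) to 1 (higher) with larger values shown at the end colour, and a dot marks an adjusted p under 0.05. Most cells are pale, and the marked ones differ between tissues: no gene was marked in one direction in all 4.

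Among the cyclases of the aorta, 4 of 14 probe sets were higher in BPH than in BPN (Adcy1, Adcy4, Adcy6 and Adcy10) and 1 lower (Adcy7), and 5 were higher in BPL and 0 lower. Adcy6, a calcium-inhibited cyclase of vascular and cardiac muscle, measured 10.02, 9.78, 9.93, 9.75 and 10.03 on the BPN arrays, 10.10 to 10.73 (median 10.59) on the 9 BPH arrays and 10.11 to 10.76 (median 10.48) on the 9 BPL arrays. Every BPH and BPL array thus lay above every BPN array, by 0.63 ± 0.11 (SE; 1.55-fold, adjusted p = 0.000245) and 0.54 ± 0.11 (1.46-fold, adjusted p = 0.00125), while BPH and BPL did not differ by the test (0.09, adjusted p = 0.661). Adcy5, its close relative, had strain means of 12.07 to 12.12 and was not called.

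Adcy1, the calmodulin-stimulated cyclase best known from neurons, set BPL apart. A dimmer one of its 3 probe sets, given because its calls differ, read 3.45, 4.30, 3.75, 3.98 and 4.26 in BPN, 4.13 to 5.17 (median 4.47) in BPH and 5.13 to 5.98 (median 5.86) in BPL. All BPL arrays were above all BPN arrays (1.71 ± 0.18, 3.28-fold, adjusted p = 1.59e-07), and BPH lay between, 0.62 ± 0.18 above BPN (adjusted p = 0.0295) and below BPL (BPH minus BPL -1.09 ± 0.15, adjusted p = 1.06e-05). The brightest Adcy1 probe set gave 0.52 ± 0.11 for BPL (adjusted p = 0.00292) and 0.13 for BPH (adjusted p = 0.611), so the BPH call rests on 1 probe set. The third Adcy1 probe set was not called for BPL (0.20, adjusted p = 0.235). Between BPH and BPL, Adcy8, a calcium-stimulated cyclase, was higher in BPH (0.52 ± 0.11, adjusted p = 0.00175).

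Adcy10, the soluble cyclase that bicarbonate activates, read 4.77, 4.83, 4.84, 5.45 and 5.28 in BPN, 5.36 to 6.70 (median 5.85) in BPH and 5.54 to 6.99 (median 6.37) in BPL. BPL arrays did not overlap BPN (1.28 ± 0.22, 2.43-fold, adjusted p = 0.000219), and BPH arrays overlapped it by 1 BPN array (0.91 ± 0.22, 1.87-fold, adjusted p = 0.00808). The opposite direction was seen for Adcy7, a cyclase that G protein beta-gamma subunits stimulate: 10.94, 11.11, 10.97, 11.01 and 10.98 in BPN and 10.60 to 10.87 in BPH, with no overlap (-0.28 ± 0.07, adjusted p = 0.00513; -0.17 on its dimmer probe set, adjusted p = 0.802). Adcy9, a forskolin-insensitive cyclase, was higher in BPL (0.36 ± 0.10, adjusted p = 0.0123, and 0.0524 without BPN array 12; 0.29 on its dimmer probe set, adjusted p = 0.472), and its BPH difference was 0.24 (adjusted p = 0.138). Adcy4 was 0.36 ± 0.11 higher in BPH (adjusted p = 0.0415), but not with any 1 of 12 arrays removed (up to 0.128).

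Of the 34 phosphodiesterase probe sets in the aorta 1 was higher in BPH than in BPN (Pde4a) and 3 were lower (Pde1b and both Pde4b probe sets). Pde4a and Pde4b both encode cyclic AMP-specific enzymes, and they moved in opposite directions. The brighter Pde4b probe set read 10.49, 10.75, 11.12, 10.89 and 10.58 in BPN, 9.77 to 10.46 (median 10.07) in BPH and 9.71 to 10.40 (median 10.04) in BPL. Every BPN array stood above every array of the other strains. BPH minus BPN was -0.67 ± 0.13 (1.59-fold, adjusted p = 0.000856), BPL minus BPN was -0.69 ± 0.13 (1.61-fold, adjusted p = 0.000606), and BPH minus BPL was 0.02 (adjusted p = 0.958). The dimmer Pde4b probe set was lower in BPH (-0.84, adjusted p = 0.0364) and not called in BPL (-0.50, adjusted p = 0.262). Pde4a read 6.19, 5.93, 6.19, 5.83 and 6.31 in BPN, 6.14 to 6.91 in BPH and 6.15 to 6.87 in BPL, overlapping ranges with differences of 0.52 ± 0.13 (1.44-fold, adjusted p = 0.0116) and 0.45 ± 0.13 (1.36-fold, adjusted p = 0.0325). The Pde4a calls were lost without BPN array 14 (BPH, adjusted p = 0.0512) and without any 1 of 6 arrays (BPL, up to 0.114).

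Pde6h, an inhibitory gamma subunit of the cone photoreceptor enzyme, separated BPL from the others: 6.38, 6.46, 6.25, 6.60 and 6.30 in BPN, 5.78 to 6.69 in BPH and 6.80 to 7.50 in BPL, with no BPL array within the range of either other strain (0.76 ± 0.14 over BPN, 1.69-fold, adjusted p = 0.00037). Pde1b, a calcium- and calmodulin-dependent enzyme, was lowest in BPH (5.80 to 6.28, against 6.29 to 6.78 in BPL; -0.46 ± 0.08, adjusted p = 0.000335), and its difference from BPN (-0.32 ± 0.10, adjusted p = 0.0441) was lost without any 1 of 11 arrays (up to 0.138). The dimmer Pde3a probe set was lower in BPL (-0.52 ± 0.12 against BPN, adjusted p = 0.00305), while the brighter one, for this cyclic GMP-inhibited enzyme of vessel and heart, had strain means of 11.32, 11.41 and 11.37 and was not called. BPH exceeded BPL in Pde7a, another cyclic AMP-specific enzyme (0.47 ± 0.12, adjusted p = 0.00706), and in Pde12 (0.48 ± 0.13, adjusted p = 0.0146; 0.40, adjusted p = 0.0359, and 0.34, adjusted p = 0.111, on its other probe sets), which despite its symbol encodes a mitochondrial RNA-degrading enzyme.

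Of the 7 kinase subunit probe sets in the aorta 1 was higher in BPH (Prkar1b) and 1 in BPL (Prkar2b) than in BPN, both regulatory. Prkar1b, a regulatory subunit known mainly from neurons, read 4.40, 4.74, 4.16, 4.47 and 4.32 in BPN and 4.27 to 4.70 (median 4.46) in BPL, but 4.97 to 5.82 (median 5.34) in BPH. All 9 BPH arrays lay above all arrays of the other strains, by 0.94 ± 0.11 over BPN (1.92-fold, adjusted p = 1.46e-06) and 0.87 ± 0.10 over BPL (1.82-fold, adjusted p = 2.31e-07). The widespread subunits were not called: Prkar1a had means of 12.17 ± 0.07 in BPH, 12.16 ± 0.07 in BPN and 12.14 ± 0.07 in BPL (SD, n = 9, 5 and 9), and Prkaca, the main catalytic subunit, 10.82 ± 0.14, 10.83 ± 0.07 and 10.96 ± 0.21.

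Prkar2b, the regulatory subunit abundant in fat and brain, was 0.96 ± 0.24 higher in BPL than in BPN (1.94-fold, adjusted p = 0.0081), with BPN at 11.57, 11.54, 10.78, 10.03 and 11.49, BPL at 11.35 to 12.65 (median 12.13) and BPH at 10.89 to 12.06 (median 11.69; 0.58 ± 0.24, adjusted p = 0.146). The ranges overlapped. Fat cell markers moved with it: the mean log2 level of the 8 adipocyte markers measured (of 9 listed, none below the lower quartile) was 9.84, 9.58, 9.16, 8.61 and 9.78 on the BPN arrays, 9.30 to 10.34 in BPH and 9.50 to 10.71 in BPL, and BPN array 14 was the lowest in both. Of these markers 2 were called higher in BPH and in BPL (Ucp1 and Elovl3) and 1 lower (Lep). Prkar2b minus that mean was 1.69 ± 0.17 in BPH, 1.69 ± 0.20 in BPN and 1.86 ± 0.16 in BPL (SD), and with the marker mean as a covariate, an alternative chosen after seeing the data, the BPL difference was 0.07 (adjusted p = 0.841).

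**Figure D2:**
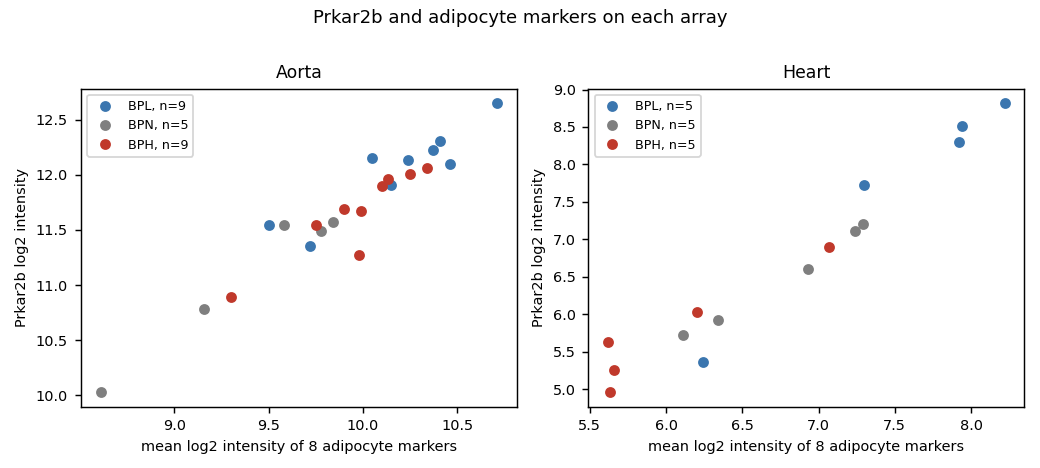
Log2 level of Prkar2b (vertical axis) against the mean log2 level of 8 adipocyte marker genes (horizontal axis), a point per array, in the aorta (23 arrays) and the heart (15 arrays), coloured by strain. Arrays with higher marker levels have higher Prkar2b in both tissues.

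The same covariate was applied to the other aortic calls. Prkar1b (0.90, adjusted p = 4.91e-05), Adcy6 in BPH (0.65, adjusted p = 0.00154) and in BPL (0.57, adjusted p = 0.0142) and Pde4b in BPH (-0.51, adjusted p = 0.0237) stayed past the threshold. Adcy10 in BPH (0.63, adjusted p = 0.128), Pde4b in BPL (-0.46, adjusted p = 0.079) and Pde4a in BPH (0.49, adjusted p = 0.0636) and BPL (0.40, adjusted p = 0.221) did not. Pde3b, the phosphodiesterase that insulin activates in fat cells, had plain means of 9.26 ± 0.32, 9.49 ± 0.26 and 9.29 ± 0.29 with no call, and was lower in BPH (-0.59, adjusted p = 0.00225) and BPL (-0.68, adjusted p = 0.00173) with the covariate. Other cell markers also differed between the aortas, as mean log2 levels per array. Lymphocyte markers were lower in BPH (5 of 6 called; 4.04 to 5.83 against 5.12 to 6.35 in BPN). Fibroblast markers lay below BPN (12.01 to 12.16) without overlap in BPH (11.80 to 11.96; 2 of 6 called) and BPL (11.72 to 11.98; 3 of 6), as the Pde4b levels did. In BPL, where Akap5 was lowest and Adcy1 highest, nerve and neuron markers (5.62 to 6.03 against 6.48 to 6.82 in BPN; 1 of 4 called, Uchl1, and 1 of 4 below the lower quartile) and smooth muscle markers (11.92 to 12.19 against 12.22 to 12.35; 2 of 9 called) were also lower without overlap. Their part in the member differences was not tested.

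Of the 23 anchor probe sets in the aorta 1 was higher in BPH than in BPN (Akap7) and 3 lower (Akap5, Akap12 and a dimmer probe set of Pde4dip). Akap5, which holds protein kinase A together with calcineurin and protein kinase C at the membrane, had the largest anchor differences. Its brighter probe set read 6.89, 7.13, 7.10, 7.86 and 6.86 in BPN, 5.54 to 6.99 (median 6.36) in BPH and 4.54 to 6.13 (median 5.30) in BPL. BPL lay wholly below BPN (-1.74 ± 0.28, 3.34-fold, adjusted p = 7.02e-05) and was lower than BPH (BPH minus BPL 0.83, adjusted p = 0.0197). The second probe set gave the same order of BPL and BPN (-0.83 ± 0.14, adjusted p = 0.000111). The BPH difference (-0.91 ± 0.28, adjusted p = 0.037) was lost without any 1 of 7 arrays (BPH 7, 8, 10 and 11 and BPN 12, 13 and 14; up to 0.142), was -0.65 with the adipocyte covariate (adjusted p = 0.264), and was -0.09 on the second probe set (adjusted p = 0.805).

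Akap12 (gravin), a scaffold at the beta-adrenergic receptor, was lower in BPH: 11.13 to 11.74 (median 11.53), against 11.90, 12.06, 11.98, 11.88 and 11.67 in BPN and 11.84 to 12.16 in BPL. BPH and BPL arrays did not overlap (-0.50 ± 0.08, 1.42-fold, adjusted p = 2.38e-05), and BPH and BPN did by 1 BPN array (-0.41 ± 0.09, adjusted p = 0.00295). Akap7, which anchors the kinase near phospholamban, was higher in BPL without overlap (10.18 to 10.64 against 9.78 to 9.98; 0.49 ± 0.09, 1.41-fold, adjusted p = 0.000453). Its BPH difference of 0.29 ± 0.09 (adjusted p = 0.0454) was lost without any 1 of 16 arrays (up to 0.127). Between BPH and BPL, Akap17b was higher in BPH (0.30 ± 0.08, adjusted p = 0.0158). Pde4dip was not called on its brightest probe set (BPH -0.17, adjusted p = 0.186; BPL -0.06, adjusted p = 0.716). A dimmer one was lower in both strains (-0.32 ± 0.08, adjusted p = 0.00959, and -0.27 ± 0.08, adjusted p = 0.0325), and the third was not called (-0.39, adjusted p = 0.153, and -0.46, adjusted p = 0.0773). Akap2 was called on a dimmer probe set between BPH and BPL (0.35, adjusted p = 0.0369).

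Well-known members with no call in the aorta were Pde1a, Pde2a, Pde4d, Prkacb, Prkar2a, Akap1, Akap6 and Akap13. Pde4d had means of 9.19 ± 0.20 in BPH, 8.92 ± 0.08 in BPN and 9.20 ± 0.27 in BPL (BPH difference 0.27, adjusted p = 0.189). Pde2a, the cyclic GMP-stimulated enzyme, had 6.01 ± 0.33, 5.80 ± 0.52 and 6.20 ± 0.22 (BPL difference 0.41, adjusted p = 0.178), and Akap1, the anchor of the mitochondrial outer membrane, 4.73 ± 0.26, 4.63 ± 0.30 and 4.99 ± 0.31. Akap6, which sits at the nuclear envelope of muscle, differed by -0.32 in BPH (adjusted p = 0.16). Against BPN the differences of the other 4 lay between -0.13 and 0.17. With all tissues fitted together by limma, some of these members did pass the threshold. They were Akap1 (0.36, adjusted p = 0.00821) and Pde2a (0.41, adjusted p = 0.0167) in BPL, and Akap6 in BPH (-0.32, adjusted p = 0.0189) and BPL (-0.28, adjusted p = 0.0397).

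**Figure D3:**
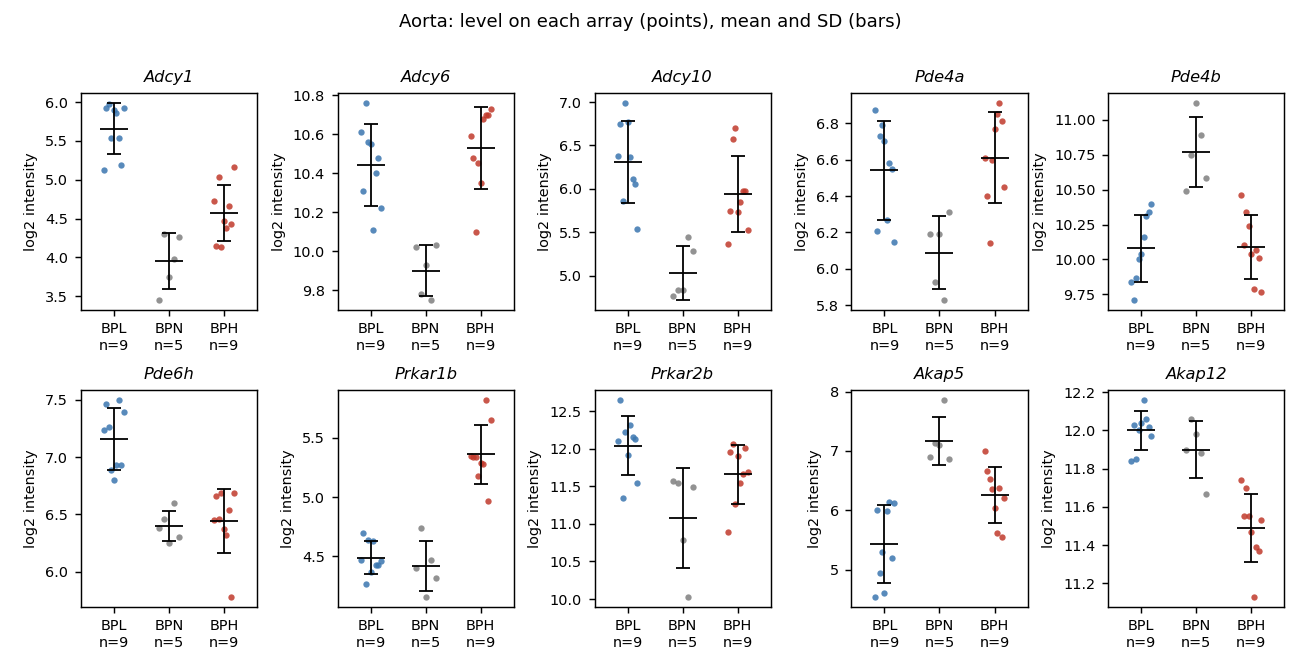
Log2 level on each aortic array (points) with the mean ± SD (bars) for 10 members in BPH (9 arrays), BPN (5) and BPL (9). The BPH points of Prkar1b lie above those of both other strains, the BPN points of Pde4b lie above and those of Adcy6 below both others, and the BPL points of Pde6h lie above both others.

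In the heart 9 of 78 member probe sets (11.5%) were higher in BPH than in BPN and 4 (5.13%) lower, where 3.51% of all probe sets were higher and 3.51% lower. With the arrays centred on their medians the split was 7 higher and 1 lower, and the 13 calls fell to 8 without BPH array 2 or BPN array 4. BPL against BPN gave 9 higher (11.5%) and 2 lower (2.56%), with 4.14% and 5.2% over all probe sets. BPH against BPL gave 7 higher (8.97%) and 5 lower (6.41%), with 4.59% and 3.97% over all. That split was 6 and 7 after quantile normalization, and the count fell to 6 and 7 without BPL arrays 1 and 4.

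Adcy5, with Adcy6 the main cyclase of heart muscle, was higher in BPL. It read 7.74, 7.87, 7.83, 7.95 and 7.68 in BPL, against 7.10, 7.20, 7.07, 7.22 and 7.26 in BPN and 7.30, 7.27, 7.29, 7.14 and 7.28 in BPH. No BPL array overlapped the others (0.65 ± 0.06 over BPN, 1.57-fold, adjusted p = 1.15e-06; BPH minus BPL -0.56 ± 0.06, adjusted p = 6.15e-06), and BPH minus BPN was 0.09 (adjusted p = 0.523). Adcy1 was the only other cyclase called, lower in BPH (-0.37 ± 0.10, adjusted p = 0.0348), which did not hold with any 1 of 5 arrays removed (up to 0.0986), with the adipocyte covariate (adjusted p = 0.188) or when all tissues were fitted together, the joint fit (adjusted p = 0.247). The other Adcy1 probe sets gave 0.25, the opposite direction (adjusted p = 0.0998), and -0.13 (adjusted p = 0.633, partly below the lower quartile).

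The heart phosphodiesterases gave 5 of 34 probe sets higher and 2 lower in BPH against BPN. Pde3a, the cyclic GMP-inhibited enzyme that cardiac inotropes such as milrinone block, read 9.40, 9.43, 9.42, 9.48 and 9.42 in BPH, 8.84, 8.82, 8.99, 8.99 and 9.01 in BPN and 9.13, 9.36, 9.11, 9.19 and 9.28 in BPL. The 3 strains did not overlap, with BPH highest (0.50 ± 0.06 over BPN, 1.41-fold, adjusted p = 2.09e-05) and BPL between (0.28 ± 0.06 over BPN, adjusted p = 0.00514). Its difference between BPH and BPL (0.22 ± 0.06, adjusted p = 0.0314) was lost without any 1 of 8 arrays (up to 0.0868). The dimmer Pde3a probe set, with means of 6.61 to 6.78, was not called (BPH 0.16, adjusted p = 0.406; BPL 0.15, adjusted p = 0.411). In the joint fit of all tissues, which shares 1 estimate of the spread, the differences of the brighter one from BPN had adjusted p = 0.0523 (BPH) and 0.485 (BPL).

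Pde1c, a calmodulin-dependent enzyme of heart and proliferating smooth muscle, stood in the same order by its strain means. All 3 of its probe sets were higher in BPH than in BPN, the brightest reading 7.93, 7.84, 8.07, 8.10 and 8.17 in BPH and 7.18, 7.27, 7.44, 7.67 and 7.57 in BPN (0.59 ± 0.09, 1.51-fold, adjusted p = 0.000145), without overlap. BPL lay at 7.71 to 7.77, above BPN by 0.31 ± 0.09 (adjusted p = 0.0282), which did not hold with any 1 of 6 arrays removed (up to 0.0799), with the adipocyte covariate (adjusted p = 0.118) or when all tissues were fitted together (adjusted p = 0.149). The other 2 probe sets were not called for BPL (0.06, adjusted p = 0.7, and 0.15, adjusted p = 0.487). Between BPH and BPL the brightest differed by 0.28 ± 0.09 (adjusted p = 0.0474). That call was lost without any 1 of 10 arrays (up to 0.118) and in the joint fit (0.219). With the adipocyte covariate the difference was 0.39 (adjusted p = 0.0875). The other 2 probe sets were called there (0.25, adjusted p = 0.0201, and 0.37, adjusted p = 0.0396).

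Pde7a was higher in BPH alone: 7.31, 7.22, 7.56, 7.47 and 7.36, against 6.58, 6.84, 7.08, 7.02 and 6.89 in BPN and 6.71 to 6.87 in BPL. BPH overlapped neither strain (0.50 ± 0.09 over BPN, 1.42-fold, adjusted p = 0.000829; 0.56 ± 0.09 over BPL, adjusted p = 0.000237). Pde4a went the other way, at 6.96, 7.13, 6.97, 6.94 and 7.04 in BPH, 7.36, 7.23, 7.36, 7.42 and 7.51 in BPN and 7.33 to 7.58 in BPL, with BPH below both (-0.37 ± 0.06 against BPN, 1.29-fold, adjusted p = 0.000979). Pde4d, the isoform tied to the ryanodine receptor and the beta-adrenergic receptor in heart, was raised in BPL: 8.58, 8.56, 8.60, 8.65 and 8.71, against 8.22, 8.08, 8.16, 8.19 and 8.30 in BPN (0.43 ± 0.05, 1.35-fold, adjusted p = 3.29e-05) and 8.09 to 8.23 in BPH. Its other 2 probe sets, much dimmer, were not called (0.03, adjusted p = 0.902, and 0.17, adjusted p = 0.182).

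Of the kinase subunits in the heart, the catalytic subunit Prkaca was higher in BPH and in BPL than in BPN. It read 9.76, 9.81, 9.82, 9.72 and 9.76 in BPH, 9.44, 9.40, 9.51, 9.48 and 9.35 in BPN and 9.50, 9.82, 9.76, 9.71 and 9.77 in BPL. BPH did not overlap BPN (0.34 ± 0.06, 1.26-fold, adjusted p = 0.00148), and BPL did by 1 array (0.28 ± 0.06, adjusted p = 0.00696). Prkar2b differed by -1.99 ± 0.53 between BPH and BPL (adjusted p = 0.0234), with BPH at 5.63, 4.96, 6.90, 5.25 and 6.03 and BPL at 8.51, 5.36, 8.30, 8.82 and 7.73. BPL array 2 lay within the BPH range, and it was also the lowest BPL array in the adipocyte markers (7.94, 6.24, 7.92, 8.22 and 7.30 in BPL, 5.62 to 7.07 in BPH). The call was lost without any 1 of 5 arrays (BPH 2 and 4 and BPL 1, 3 and 4; up to 0.0674), and with the adipocyte covariate the difference was 0.17 (adjusted p = 0.772).

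Anchors gave 3 of 23 probe sets higher in BPH hearts and 1 lower. Akap9 (yotiao), which holds the kinase at the cardiac potassium channel KCNQ1 and at the Golgi, read 8.03, 8.07, 8.08, 8.02 and 8.07 in BPH, 7.59, 7.48, 7.65, 7.49 and 7.66 in BPN and 7.78, 7.81, 7.88, 7.77 and 7.84 in BPL. The strains did not overlap, BPH being 0.48 ± 0.05 (1.39-fold, adjusted p = 5.34e-06) and BPL 0.24 ± 0.05 (adjusted p = 0.00464) above BPN. Akap11 (AKAP220) was higher in BPL alone, at 8.55, 8.57, 8.61, 8.53 and 8.58, against 8.10, 8.03, 8.23, 8.22 and 8.17 in BPN (0.42 ± 0.05, 1.34-fold, adjusted p = 2.51e-05) and 8.12 to 8.25 in BPH. Akap10 was lower in BPH (-0.26 ± 0.08, adjusted p = 0.0479), but not with any 1 of 11 arrays removed (up to 0.13) or in the joint fit (0.16). The Pde4dip call (0.18 ± 0.05, adjusted p = 0.0379) was lost without any 1 of 8 arrays (up to 0.102), with the adipocyte covariate (0.195) and in the joint fit (0.231), and its other probe sets gave 0.26 (adjusted p = 0.0372) and -0.03 (adjusted p = 0.864).

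Pde12 was lower in BPL hearts than in BPN (-0.28 ± 0.07, adjusted p = 0.0151, and 0.286 in the joint fit), but not on its other probe sets (-0.16, adjusted p = 0.149, and -0.14, adjusted p = 0.411). Pde6g, a photoreceptor gamma subunit, was higher (0.25 ± 0.07, adjusted p = 0.0187), but not without BPN array 5 (0.0541), with the adipocyte covariate (0.0667) or in the joint fit (0.269). Adcy4, Adcy6 and Adcy9 were not called in the heart, Adcy6 having means of 8.87 ± 0.08 in BPH, 8.77 ± 0.06 in BPN and 8.78 ± 0.10 in BPL (SD, n = 5 each). The brightest probe sets of Pde1a, Pde2a and Pde4b, and Akap1, Akap6, Akap12 and Akap13, were not called either, with differences from BPN between -0.07 and 0.17. Dimmer probe sets were called for Pde4b, lower in BPL (-0.48, adjusted p = 0.0314), for Pde2a, higher in BPL (0.24, adjusted p = 0.0459), and for Pde10a, lower in BPH (-0.37, adjusted p = 0.0499). Prkar2a, the regulatory subunit of the type II kinase, differed by -0.19 in BPH (adjusted p = 0.0681). Pde3b lay below the lower quartile of the array.

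**Figure D4:**
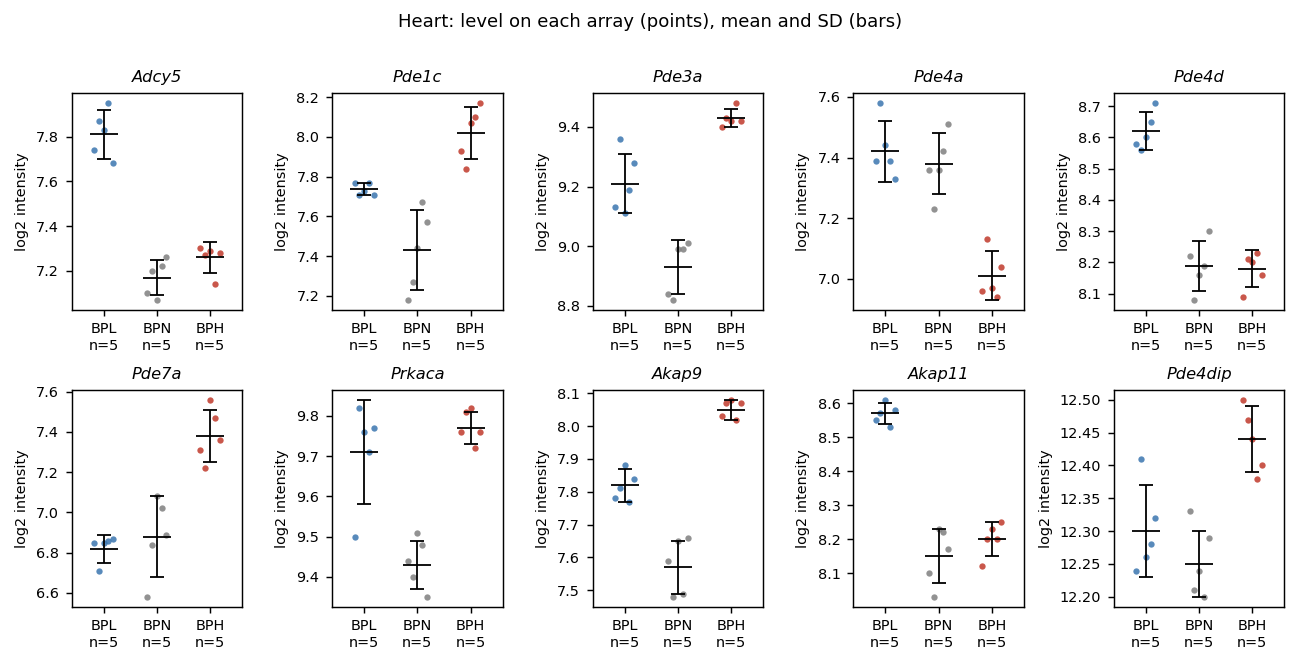
Log2 level on each heart array (points) with the mean ± SD (bars) for 10 members in BPH, BPN and BPL (5 arrays each). Pde3a and Akap9 stand in the order BPH, BPL, BPN without overlap, and the BPL points of Adcy5, Pde4d and Akap11 lie above those of the other strains.

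Markers of other cells differed between the hearts as well. Smooth muscle markers in BPH (7.28 to 7.45) lay below BPN (7.46 to 7.58) and BPL (7.55 to 7.89) without overlap. Nerve and neuron markers in BPL (5.18 to 5.33) lay below BPN (5.49 to 5.68) and BPH (5.64 to 5.74) without overlap. The 1 red blood cell marker measured lay above BPN (8.90 to 9.29) in BPH (9.38 to 10.29). Macrophage markers were lower than in BPN in BPH (5 of 7 called; 7.57 to 7.78 against 8.01 to 8.53) and in BPL (7 of 7; 7.59 to 7.64), and 2 of 6 atrial markers were lower in BPH (10.38 to 11.03 against 10.98 to 11.20). Their part in the member differences was not tested.

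Several strain differences were unlike in aorta and heart by the test of the difference itself. For BPH against BPN the aortic difference exceeded that of the heart on 4 probe sets (5.13%) and was below it on 4 (5.13%), where 2.47% and 2.53% of all probe sets did so. For BPL against BPN the counts were 5 (6.41%) and 6 (7.69%), with 2.81% and 2.67% over all. Pde4a, higher in BPH aortas and lower in BPH hearts, differed by 0.89 ± 0.17 (adjusted p = 0.000456), Prkar1b by 0.95 ± 0.15 (adjusted p = 3.74e-05) and Akap9 by -0.64 ± 0.09 (adjusted p = 3.8e-06). For BPL, Adcy1 differed by 1.77 ± 0.24 (adjusted p = 1.35e-06) on its probe set brightest in the heart, and Adcy5 by -0.68 ± 0.11 (adjusted p = 3.84e-05). The Adcy1 probe set brightest in the aorta gave 0.39 (adjusted p = 0.228), and the third gave 0.12 (adjusted p = 0.8). Aortic RNA was amplified with another kit than the RNA of the other tissues, so tissue and amplification cannot be told apart here.

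In the kidney 2 of 78 member probe sets (2.56%) were higher in BPH than in BPN and 5 (6.41%) lower, with 3.66% and 3.39% over all probe sets. BPL against BPN gave 3 (3.85%) and 5 (6.41%), with 3.22% and 3.02% over all. BPH against BPL gave 1 (1.28%) and 4 (5.13%), with 3.14% and 3.19% over all. The counts fell to 4 without BPN array 1 or 2 (BPH against BPN) and to 3 without BPH array 2 or 4 or BPL array 2 or 5 (BPH against BPL). Among the 14 cyclase probe sets 0 were called between BPH and BPN by limma (2 had an unadjusted p under 0.05), and among the 7 kinase subunit probe sets 0 (0 unadjusted).

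Pde7a and Pde6d, the latter a chaperone that carries prenylated proteins, were lower in both strains than in BPN kidneys. Pde7a read 7.43, 7.46, 7.24, 7.46 and 7.38 in BPN, 6.80 to 7.06 in BPH (-0.45 ± 0.07, 1.37-fold, adjusted p = 0.00039) and 6.80 to 7.02 in BPL (-0.50 ± 0.07, 1.41-fold, adjusted p = 0.000291). Pde6d read 8.07, 8.18, 8.20, 8.36 and 8.38 in BPN, 7.73 to 7.85 in BPH (-0.47 ± 0.07, adjusted p = 0.000308) and 7.66 to 7.91 in BPL (-0.45 ± 0.07, adjusted p = 0.000875). Neither gene's BPN arrays overlapped those of another strain.

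Pde6a, a catalytic subunit of the rod photoreceptor enzyme and dim here, read 4.89, 4.42, 4.38, 4.58 and 4.82 in BPN, 3.55 to 3.97 in BPH (-0.87 ± 0.11, 1.83-fold, adjusted p = 3.94e-05) and 3.96 to 4.25 in BPL (-0.45 ± 0.11, adjusted p = 0.0236, up to 0.0876 without any 1 of 3 arrays). BPL kidneys had more Pde1a, a calmodulin-dependent enzyme (9.27, 9.39, 9.18 and 9.21 against 8.40 to 8.72 in BPN; 0.67 ± 0.08, 1.59-fold, adjusted p = 5.5e-05), and more Akap11 (9.26, 9.17, 9.10 and 9.17 against 8.42 to 8.66; 0.61 ± 0.07, 1.53-fold, adjusted p = 1.58e-05). BPH was lower than BPL in Pde1a (-0.57 ± 0.08, adjusted p = 0.000301) and Akap11 (-0.47 ± 0.07, adjusted p = 0.000268). Adcy1 was lower in BPL than in BPN (-0.51 ± 0.11, adjusted p = 0.00808) and in BPH (BPH minus BPL 0.66 ± 0.11, 1.58-fold, adjusted p = 0.000899). Its other 2 probe sets were not called (BPL minus BPN -0.06, adjusted p = 0.828, and -0.11, adjusted p = 0.739), and the joint fit gave the brightest adjusted p = 0.0524 against BPN. Akap1 was lower in BPH (-0.29 ± 0.08, adjusted p = 0.0303) and BPL (-0.31 ± 0.08, adjusted p = 0.029), and Akap10 in BPH (-0.32 ± 0.09, adjusted p = 0.0313); these and the Pde3a difference in BPH (0.39 ± 0.11, adjusted p = 0.0418) did not hold with any 1 of 5 to 8 arrays removed (up to 0.114). Distal nephron markers were lower in BPL too (10.25 to 10.32, against 10.44 to 10.53 in BPN and 10.45 to 10.68 in BPH), and macrophage markers lower in BPH (4 of 7 called; 5.55 to 5.75 against 6.04 to 6.36 in BPN). Markers of the adrenal gland, which lies on the kidney, were at 3.74 to 3.91 in BPH, 3.88 to 9.02 (median 4.74) in BPN and 3.71 to 8.55 (median 4.18) in BPL, with 0 of 5 called by limma in either comparison with BPN (4 unadjusted in BPH and 0 in BPL). Hepatocyte markers were higher without overlap in BPH (5.71 to 6.33) and BPL (6.14 to 6.37) than in BPN (4.82 to 4.89), with 1 of 3 called, Ttr. The part of these markers in the member differences was not tested.

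In the liver 8 of 78 member probe sets (10.3%) were higher in BPH than in BPN and 3 (3.85%) lower, with 3.29% and 3.85% over all probe sets. BPL against BPN gave 8 (10.3%) and 5 (6.41%), with 3.77% and 3.7% over all. BPH against BPL gave 2 (2.56%) and 4 (5.13%), with 2.68% and 3.09% over all. The first count fell to 7 without BPH array 5, and the last to 3 without BPL array 2. Macrophage markers were lower than in BPN in BPH and in BPL livers (6 of 7 called in each), and their part was not tested.

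Pde4b, on 1 of its probe sets, was the only member called both between BPH and BPN and between BPN and BPL in the order of blood pressure. It read 6.28, 6.17, 5.96, 6.77 and 6.85 in BPH, 5.58, 5.61, 5.36, 6.19 and 5.39 in BPN and 4.96, 5.33, 4.72, 4.61 and 4.49 in BPL. BPH lay wholly above BPL (1.59 ± 0.19, 3-fold, adjusted p = 1.15e-05). The BPN mean lay between (BPH 0.78 ± 0.19 above, adjusted p = 0.0135, and BPL minus BPN -0.80 ± 0.19, adjusted p = 0.0102). The BPN array at 6.19 fell within the BPH range. How many of all probe sets had such an order was not counted. The other called Pde4b probe set placed BPL lowest as well (-0.75 ± 0.19 against BPN, adjusted p = 0.0188, up to 0.0568 without any 1 of 3 arrays), but its BPH and BPN arrays were not separated (0.27, adjusted p = 0.511).

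Pde4c and Pde6d were higher in BPH and BPL livers than in BPN. Pde4c, a further cyclic AMP-specific enzyme, read 6.01 to 6.27 in BPH, 5.60, 5.86, 5.79, 5.56 and 5.76 in BPN and 6.02 to 6.20 in BPL (0.42 ± 0.07, adjusted p = 0.000687, and 0.38 ± 0.07, adjusted p = 0.00168). Pde6d (0.47 ± 0.10, adjusted p = 0.00536, in BPH) was thus higher in the liver and lower in the kidney of the same strain. Its BPL call in the liver (0.39 ± 0.10, adjusted p = 0.0223) was lost without any 1 of 3 arrays (up to 0.0628) and with only 2 strains fitted. Akap17b was lower in both without overlap (5.37 to 6.09 in BPN, 4.78 to 5.18 in BPH and 4.92 to 5.19 in BPL; BPH -0.69 ± 0.12, 1.62-fold, adjusted p = 0.000691; BPL -0.72 ± 0.12, adjusted p = 0.000429). Adcy7, dim here, was lower in BPH livers (2.71 to 3.10 against 3.23 to 3.67, -0.51 ± 0.09, adjusted p = 0.00173). Its BPH readings lay near the lower quartile of 2.67 to 2.76, and its other probe set gave -0.17 (adjusted p = 0.431). Adcy9 was higher in BPL (0.31 ± 0.08, adjusted p = 0.0227, up to 0.0589 with any 1 of 4 arrays removed and 0.371 in the joint fit). Pde12 was lower in BPL (-0.33, adjusted p = 0.0476, and -0.68, adjusted p = 0.00126, on 2 of its 3 probe sets). Adcy3, which is among the BPL calls, and Prkar2b lay below the lower quartile in every strain, so no difference is given. Akap11 was higher in BPL, at 7.56, 7.82, 7.55, 7.77 and 7.70 against 7.16, 6.61, 6.97, 7.04 and 7.09 in BPN (0.71 ± 0.09, 1.63-fold, adjusted p = 4.57e-05). In BPH livers Akap9 (0.35, adjusted p = 0.00896) and Akap11 (0.34, adjusted p = 0.0323) were higher than in BPN. Akap12 (0.45, adjusted p = 0.0339) and Adcy5 (0.31, adjusted p = 0.0342) were higher there as well. The Akap12 and Adcy5 calls were each lost without any 1 of 6 arrays (up to 0.0991).

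**Figure D5:**
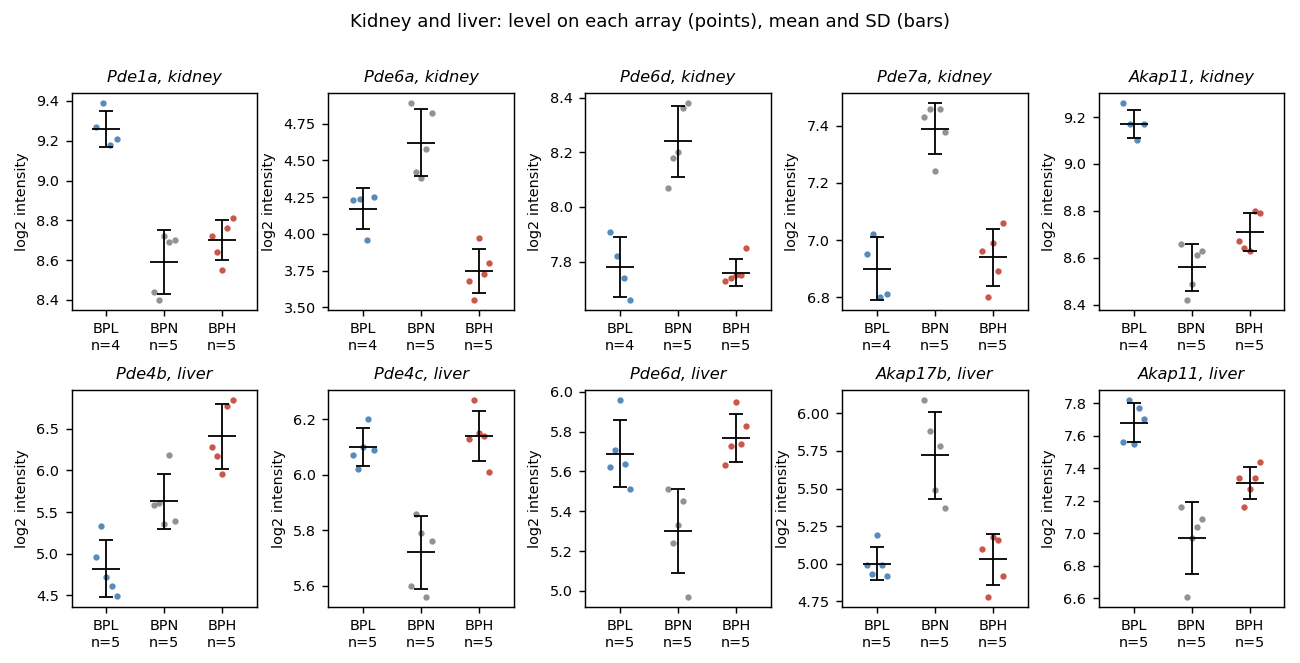
Log2 level on each array (points) with the mean ± SD (bars) for 5 members in the kidney (5 BPH, 5 BPN and 4 BPL arrays) and 5 in the liver (5 arrays each). BPN is highest for Pde6a, Pde6d and Pde7a in the kidney and lowest for Pde4c in the liver, and BPL is highest for Akap11 in both.

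Across tissues, 38 of the 54 genes (70.4%) had a probe set called in at least 1 of the 12 comparisons within a tissue and 16 had none, where 47.3% of all 19147 genes had one. By probe set, 49 of 78 (62.8%) were called at least in 1 comparison, against 37.4% of all 38385. No gene was called in one direction in all 4 tissues. Akap11 was higher in BPL than in BPN in 3 (heart, kidney and liver), and Akap7 was higher in BPH than in BPN in 3 (aorta, kidney, 0.32 ± 0.07, adjusted p = 0.0132, and liver, 0.35 ± 0.09, adjusted p = 0.0157). The aortic Akap7 call in BPH was lost without any 1 of 16 arrays. Akap7 was also higher in BPL than in BPN in the aorta and in the liver (0.45 ± 0.09, adjusted p = 0.00194, in the liver). Akap9 was called for BPL in 3, lower in the aorta (-0.23 ± 0.07, adjusted p = 0.0445) and higher in heart and liver. The kinase subunits Prkacb, Prkar1a and Prkar2a were among the 16 genes never called.

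The rest of the pathway is given by lists of its parts, as counts of called genes over those measured. Over all probe sets 4.45% were higher and 4.7% lower in BPH aortas than in BPN, and 5.14% and 5.2% in BPL aortas. In the heart these shares were 3.51% and 3.51% in BPH, and 4.14% and 5.2% in BPL. Of 14 receptors that act through the stimulatory G protein, 2 were higher (Calcrl and Drd1) and 1 lower (Adcyap1r1) in BPH aortas, Drd1, a dopamine receptor, by 2.89 ± 0.22 (adjusted p = 3.87e-10); in BPL 2 were higher and 2 lower. In the heart 0 were called by limma in either strain (1 unadjusted in each). Of 11 receptors acting through the inhibitory G protein, the cannabinoid receptor Cnr1 was higher in BPH aortas (0.50, adjusted p = 0.0445) and lower in BPL aortas (-0.58, adjusted p = 0.0153), and in the heart 0 were called in BPH by limma (1 unadjusted) and 2 were lower in BPL. Of 13 G protein and RGS genes 4 were higher in BPH hearts, among them Rgs2 (0.80, adjusted p = 1.27e-05) and Rgs5 (0.96, adjusted p = 1.09e-07), which quicken the end of G protein signals; in BPL aortas Rgs5 was lower (-1.30, adjusted p = 5.44e-06).

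Among 16 kinase inhibitors and other anchors, 2 were higher and 2 lower in BPH aortas. Sphkap, an anchor for the type I kinase, had the largest difference of this list, with means of 10.92 in BPH and 4.86 in BPN (6.06 ± 0.24, adjusted p = 6.91e-16). The inhibitor Pkig was lower in BPH (-1.77, adjusted p = 3.89e-09) and BPL aortas (-2.04, adjusted p = 2.33e-10). Of 16 substrates and phosphatase controls 1 was lower in BPH aortas and 2 were higher, the calcium-handling genes Pln (1.09, adjusted p = 6.95e-05) and Ryr2 (0.87, adjusted p = 2.64e-05). Both were also higher in BPL. Striated muscle markers lay at 5.72 to 7.52 in BPH aortas, 5.90 to 6.21 in BPN and 6.05 to 7.23 in BPL. Atrial markers lay at 5.83 to 8.25, 5.95 to 6.43 and 5.57 to 6.12. The part of heart muscle RNA in the Pln and Ryr2 differences was not tested. Of 15 cyclic AMP-response genes 1 was lower in BPH aortas, Pde4b itself, while in BPL 2 were higher and 4 lower, including Nr4a1 (-2.20, adjusted p = 7.53e-05) and Fos (-1.87, adjusted p = 0.00175).

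Of 10 CREB family genes 1 was higher in each strain's aorta (Crtc3, 0.54 in BPH, adjusted p = 0.000136) and 1 lower in each strain's heart (Creb5). Of 13 other cyclic AMP effectors limma called 0 in BPH in either tissue (2 unadjusted in each) and 2 lower in BPL aortas. Of 9 cyclic GMP cyclases and kinases 2 were higher in BPH aortas, the natriuretic peptide receptor Npr1 by 2.31 (adjusted p = 1.86e-12), and 2 in BPH hearts, Npr1 by 1.14. Npr1 was also higher in BPH kidney and liver, where the cyclic GMP list had 2 and 4 genes higher and 0 lower. In the kidney and the liver each list had 0 to 4 genes higher and 0 to 4 lower against BPN. Over all probe sets 3.22% to 3.77% were higher and 3.02% to 3.85% lower in these comparisons.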

How the data were processed

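Array intensities were deposited by the authors as normalized values per probe set, RMA being the method named per the submitters' processing notes, with no version given and whether tissues were normalized together not given in the sources used here. RMA values are comparable between arrays of a probe set, and it compresses differences of dim probe sets. Values were converted to log2 with a pseudocount of 0 and no filter, and all 38385 probe sets were fitted with limma 3.58.1 (R 4.3.3) by strain within each tissue, p-values being adjusted by Benjamini-Hochberg over all of them at 0.05. Aorta and heart differences were compared in a fit over both. Summaries and plots used Python 3.11.15, pandas 2.3.3 and matplotlib 3.10.9, and the scripts were tested on simulated data. By rule, each gene stood for its brightest probe set in a tissue. The rule named the 10 called members with the largest differences per comparison in aorta and heart and the 6 largest in kidney and liver. It added a set of well-known members in any case, and up to 3 genes per pathway list. Not every call of these members is printed, so a value left out does not mean no call. Where another probe set differed in call or direction it is mostly given beside the named difference. The members and lists were chosen with earlier results of these data known. Replicate numbers were shared across strains outside the aorta, but same-numbered arrays did not deviate together. The number of arrays limits the precision, and no batch is given in the labels.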

Additional observations from a re-analysis of the deposited data

Results flagged for a closer look

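Of 139 groups tested, 8 held 1 array that stood apart from the rest by Dixon's 95% critical value, which chance passes in about 5% of groups. In the aorta these were Akap5 on BPN array 14 (7.86, the others 6.86 to 7.13), Pde6h on BPH array 10 (5.78, the others 6.32 to 6.69) and Pde7a on BPH array 11 (6.87, the others 5.79 to 6.34). In the heart they were Adcy5 on BPH array 4 (7.14, the others 7.27 to 7.30) and Pde7a on BPL array 2 (6.71, the others 6.85 to 6.87). In the kidney and liver they were Pde6a on kidney BPL array 4 (3.96, the others 4.23 to 4.25), Pde6d on kidney BPH array 5 (7.85, the others 7.73 to 7.75) and Akap17b on liver BPL array 3 (5.19, the others 4.92 to 4.99).

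The strain difference from BPN differed between aorta and heart in 18 values of named members, by limma's test of the aorta difference minus the heart difference (SE and adjusted p given). For BPH these were Adcy1 0.99 ± 0.24 (0.00692), Adcy6 0.53 ± 0.14 (0.0156), Akap12 -0.50 ± 0.12 (0.009), Akap9 -0.64 ± 0.09 (3.8e-06) and Pde4a 0.89 ± 0.17 (0.000456). Pde4b gave -0.60 ± 0.16 (0.022), Pde4dip -0.50 ± 0.10 (0.000839) on the probe set brightest in the heart and Prkar1b 0.95 ± 0.15 (3.74e-05). For BPL they were Adcy1 1.77 ± 0.24 (1.35e-06), Adcy10 1.25 ± 0.28 (0.00332), Adcy5 -0.68 ± 0.11 (3.84e-05), Adcy6 0.53 ± 0.14 (0.0139) and Akap7 0.45 ± 0.11 (0.0106). Akap5 gave -0.98 ± 0.18 (0.000202) and -1.90 ± 0.35 (0.000229) on its probe sets, Akap9 -0.47 ± 0.09 (0.000477), Pde4b -0.69 ± 0.16 (0.00606) and Pde6h 0.82 ± 0.18 (0.00318). In the heart these Akap5 probe sets read 3.31 to 3.85 and 2.16 to 2.82, and Pde6h 3.03 to 3.64. The lower quartile there was 3.20 to 3.32, so a heart difference could hardly show. The Akap5 and Pde6h values thus mostly restate the aortic differences. The other Adcy1 probe sets gave 0.26 (0.534) and -0.23 (0.463) for BPH, and 0.39 (0.228) and 0.12 (0.8) for BPL. The dimmer Pde4b probe set gave -0.63 (0.389) for BPH and -0.03 (0.989) for BPL. The other Pde4dip probe sets gave -0.14 (0.603) and -0.66 (0.0562) for BPH. Tissue and amplification kit cannot be told apart in these differences.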

How the results depend on the processing

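Of 95 calls on named members, 59 were kept under every other setting run, leaving out arrays included, apart from another probe set and the adipocyte covariate, and 30 were lost without at least 1 array. Without 1 array at a time the member counts ran from 8 to 15 in the aorta (BPH against BPN), 8 to 12 (BPH against BPN) and 6 to 12 (BPH against BPL) in the heart, 4 to 8 and 3 to 6 for the same comparisons in the kidney, and 7 to 13 and 3 to 6 in the liver. A joint fit of all tissues gave 25 in the aorta (BPH against BPN) and 5 in the kidney (BPL against BPN). In the heart it gave 5, 6 and 6 (BPH against BPN, BPL against BPN and BPH against BPL). Its strain differences are those of the main fit, and it shares 1 estimate of the spread over all tissues. Among the named differences it lost 19 calls and gained 8. Median centring gave 8 in the heart (BPH against BPN), and fitting 2 strains only gave 7 in the liver (BPH against BPN). With the replicate number as a block, which pairs no arrays by its correlations (heart -0.26 to 0.19, kidney -0.29 to 0.28, liver -0.15 to 0.27), the heart gave 9 (BPH against BPN) and the kidney 4 (BPH against BPN) and 3 (BPH against BPL). The adipocyte covariate, chosen after seeing the data, gave 5 in the heart (BPH against BPL) and turned Prkar2b there to 0.17. Between those strains the calls for Akap9, Pde12, Pde1c and Pde3a were also lost with it. Akap9 stayed at 0.23 (adjusted p = 0.128) and Pde12 at 0.27 (adjusted p = 0.205). Pde1c rose from 0.28 to 0.39 (adjusted p = 0.0875), and Pde3a fell from 0.22 to 0.13 (adjusted p = 0.508). Another probe set turned Pde3a to 0.41 in the aorta (BPH against BPL), Adcy1 to 0.25 and Pde4dip to -0.03 in the heart, and Pde3a to -0.02 in the kidney.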
